A study of Homo sapiens with 6 samples.

Results

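The 10 genes that encode the subunits of the hypoxia-inducible factors (HIF) and the enzymes that sense oxygen for them were followed in a human cell line labelled HCC, the usual short form of hepatocellular carcinoma. They are HIF1A, EPAS1, HIF3A, ARNT, ARNT2, EGLN1, EGLN2, EGLN3, VHL and HIF1AN, found by symbol in GENCODE release 29 among the 58676 genes of the deposited table, with 1 gene ID for each of the 10. The knockdown libraries carry that word as their genotype label and are titled sponge, a name for an RNA that soaks up a microRNA, and they were set against libraries with the genotype label control. The series title speaks of cells treated with miR-19a, the design text of a knockdown, and the group labels were followed. The labels give DMEM with serum for all cells and name neither the line, the sponge construct, an oxygen level nor a time.

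HIF is a pair of an alpha subunit and the ARNT subunit. In the presence of oxygen the EGLN enzymes, also called PHD enzymes, hydroxylate prolines of the alpha subunit with 2-oxoglutarate as cosubstrate, and the VHL protein then marks that subunit for destruction. HIF1AN, also called FIH, hydroxylates an asparagine of the alpha subunit and so blocks its binding to the coactivators EP300 and CREBBP. This control acts on protein, which RNA levels do not show, while EGLN3 and EGLN1 are themselves known HIF target genes.

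Levels are RPKM, read counts corrected for exon length and for the depth of the library. The comparison used knockdown replicates 1 and 3 and control replicates 1, 2 and 3, at 9296308 and 15198231 assigned reads in knockdown and 9181567, 1948940 and 19605312 in control. Knockdown replicate 2 was left out because its values did not follow the gene IDs: its rank correlation across genes with the other libraries was 0.017 to 0.019, against 0.82 to 0.89 between any pair of the other 5, and it listed 9 of the 10 genes at 0. All 10 hepatocyte markers were at 1 RPKM or more in each of the 5 libraries, summing to 1705 to 1781 RPKM in knockdown and 1537 to 1914 RPKM in control. Endothelial markers summed to 0.388 to 0.406 RPKM in knockdown and 0.523 to 0.760 RPKM in control, with KDR and TEK at 0. Fibroblast markers summed to 68.2 to 72.4 RPKM in knockdown and 63.7 to 83.5 RPKM in control, most of it LUM. Blood and immune markers summed to 36.9 to 43.0 RPKM in knockdown and 32.7 to 41.9 RPKM in control, most of it CD14, with HBB at 0. The part of these markers in the results was not tested. In RNA of whole cultures, fewer cells that express a gene and less RNA per cell cannot be told apart. Whether each replicate was its own culture is not stated, and the p-values therefore cover library-to-library spread that can be technical.

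The mature strands of the miR-19 family are shown because a microRNA pairs with messenger RNAs mainly through its seed. They are RefSeq sequences (GRCh38.p14, chromosome 13, plus strand, 91350939 to 91350961 for miR-19a-3p and 91351245 to 91351267 for miR-19b-3p), written 5′ to 3′ with the seed, bases 2 to 8, in capitals. Both share the same seed.

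hsa-miR-19a-3p: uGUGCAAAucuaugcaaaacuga
hsa-miR-19b-3p: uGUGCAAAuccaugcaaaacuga

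The match to that seed, TTTGCAC, was searched on the sense strand of the longest annotated 3' UTR of each gene. It stood in 1 of the 10 genes, HIF1AN, and in 13.6% of the 19145 coding genes with a 3' UTR. This share was not matched for 3' UTR length, and the 3' UTR of HIF1AN was the longest of the 10. The site starts at base 9133 of an 11861-base 3' UTR and is followed by an A. It is printed in capitals within the 27 bases at chr10:100557258-100557284 (GRCh38, plus strand).

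HIF1AN: atgtcagtggacTTTGCACaggctggg

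HIF1A, EPAS1, HIF3A, ARNT, ARNT2, EGLN1, EGLN2, EGLN3 and VHL had no TTTGCAC in these 3' UTRs, whose lengths ran from 569 bases in EGLN2 to 4239 bases in ARNT2. Without its first T, as TTGCAC, the match also stood 1 time each in HIF1A, EPAS1 and ARNT. Without its last C, as TTTGCA, it stood 2 times each in EPAS1 and ARNT2 and 1 time each in HIF3A, EGLN1 and EGLN3. HIF1AN held TTGCAC 6 times and TTTGCA 3 times. The share of all genes with these shorter matches was not counted, and the base that follows them was not read. A match is a description of the letters only.

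The upstream sequences of EGLN3, EGLN1 and EPAS1 are shown because these 3 genes carry the largest part of what follows and because HIF binds a short core motif. The core was searched as ACGTG and GCGTG on both strands in the 250 bases before the RefSeq start. At least 1 match stood in 43.2% of 35116 RefSeq promoter entries, and ACGTG in 18.5%. The median G and C content of these entries was 58%, against 64% for EGLN3, 81.2% for EGLN1 and 80.8% for EPAS1. These shares were not matched for G and C content. Matches are in capitals, and each run ends at the base before the start.

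EGLN3 (chr14:33951075-33951324, minus strand, GRCh38.p14): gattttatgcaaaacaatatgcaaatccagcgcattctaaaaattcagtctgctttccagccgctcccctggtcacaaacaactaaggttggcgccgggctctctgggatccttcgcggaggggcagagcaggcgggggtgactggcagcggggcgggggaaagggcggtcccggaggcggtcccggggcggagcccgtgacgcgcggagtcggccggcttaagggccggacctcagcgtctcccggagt
EGLN1 (chr1:231422288-231422537, minus strand, GRCh38.p14): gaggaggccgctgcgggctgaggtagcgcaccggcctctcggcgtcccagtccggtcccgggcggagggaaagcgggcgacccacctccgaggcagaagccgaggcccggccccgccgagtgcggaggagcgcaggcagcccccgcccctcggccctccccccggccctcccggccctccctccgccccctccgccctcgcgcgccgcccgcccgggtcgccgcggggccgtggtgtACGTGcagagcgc
EPAS1 (chr2:46297157-46297406, plus strand, GRCh38.p14): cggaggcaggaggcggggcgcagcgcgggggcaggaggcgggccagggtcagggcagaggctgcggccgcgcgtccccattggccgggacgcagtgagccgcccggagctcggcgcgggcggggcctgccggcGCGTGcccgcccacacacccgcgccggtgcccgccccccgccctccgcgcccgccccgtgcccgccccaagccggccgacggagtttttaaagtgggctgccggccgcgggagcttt

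EGLN1 held ACGTG with its first base 13 bases before the start, EPAS1 held GCGTG 117 bases before it, and EGLN3 held neither in this window. Among the other genes with an entry, EGLN2 held ACGTG on both strands, overlapping in the palindrome CACGTG, before its upstream start, HIF3A held GCGTG 3 times before its upstream start, and HIF1A held GCGTG 1 time. ARNT and HIF1AN held neither. Promoters of VHL and ARNT2 were not analysed here.

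Of the prolyl hydroxylases, EGLN3 was higher in both knockdown libraries than in any control and EGLN1 lay close to its highest control. EGLN1 was the most abundant of the 3 in all 5 libraries and EGLN2 the least. None of the differences passed the test over all genes. That test was limma on log2(RPKM + 0.5), two-sided, and covered the 15408 genes that reached 0.5 RPKM in 3 or more libraries, with the Benjamini-Hochberg adjusted p held to 0.05. It called 0 genes higher (0% of those tested) and 0 lower (0%). Before adjustment, 585 genes were higher (3.8%) and 392 lower (2.54%) at p under 0.05, and among the 8 members tested EGLN3 alone was. Limma voom on reads recovered from the RPKM values also called 0 in either direction. Which member was under 0.05 before adjustment depended on the setting. EPAS1 was at an unadjusted p of 0.052 in limma and 0.039 in limma voom. EGLN3 was at 0.040 in limma, 0.030 in limma voom and 0.054 in limma with no mean-variance trend.

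EGLN3 (ENSG00000129521, chromosome 14 from 33924231 to 34462774 of GRCh38, minus strand) encodes PHD3, the HIF prolyl hydroxylase known for strong induction by hypoxia. It was at 15.1 and 16.4 RPKM in knockdown replicates 1 and 3, against 10.5, 8.99 and 13.1 RPKM in control replicates 1, 2 and 3, from 1034 and 1829 reads in knockdown and 711, 129 and 1884 reads in control. The groups did not overlap, and control replicate 3 was the control nearest to knockdown. EGLN3 averaged 15.7 ± 0.876 RPKM in knockdown (SD, n = 2) and 10.9 ± 2.05 RPKM in control (SD, n = 3). Its log2 difference of 0.53 (SE 0.20, 95% interval 0.04 to 1.02) did not pass (limma adjusted p = 0.71). It was higher in 2 of 2 knockdown libraries than in all 3 controls, as were 14.3% of all genes tested, and its difference exceeded that of 90.8% of them.

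EGLN1 (ENSG00000135766, chromosome 1 from 231363751 to 231425044, minus strand) encodes PHD2, the main enzyme that marks HIF1A in normal oxygen. It was at 31.7 and 30.2 RPKM in knockdown, against 23.9, 23.0 and 30.8 RPKM in control. Control replicate 3 lay between the knockdown libraries, so the groups overlapped, while the other controls were lower. The means were 31.0 ± 1.07 RPKM in knockdown (SD, n = 2) and 25.9 ± 4.27 RPKM in control (SD, n = 3). The log2 difference of 0.27 (SE 0.18, 95% interval -0.18 to 0.72) did not pass (limma adjusted p = 0.73).

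EGLN2 (ENSG00000269858, chromosome 19 from 40798996 to 40808433, plus strand) encodes PHD1. It was at 1.21 and 1.38 RPKM in knockdown, against 1.39, 1.33 and 1.34 RPKM in control, and the groups overlapped. EGLN2 differed by -0.05 on the log2 scale (SE 0.20, 95% interval -0.54 to 0.45; limma adjusted p = 0.96). The level of EGLN2 is uncertain, since 30.6% of its exon bases also belong to the readthrough gene RAB4B-EGLN2 on the same strand, which was listed at 0 in all 5 libraries, and how shared reads were counted is not given in the sources used here.

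Within the enzyme family, EGLN3 made up 31.5% and 34.1% of the summed EGLN RPKM in knockdown, against 29.4%, 27.0% and 28.9% in control. EGLN1 made up 66.0% and 63.0% in knockdown, against 66.7%, 69.0% and 68.1% in control. Both knockdown libraries thus lay above all controls in the EGLN3 share and below them in the EGLN1 share, by 4.34 percentage points for the mean EGLN3 share. The summed level was 48.1 and 47.9 RPKM in knockdown, against 35.8, 33.3 and 45.2 RPKM in control, with both knockdown libraries above all controls.

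HIF1AN and VHL act beside and after the prolyl hydroxylases, and neither separated the groups. HIF1AN (ENSG00000166135, chromosome 10 from 100529072 to 100559998, plus strand) encodes the asparagine hydroxylase and was the single gene here with TTTGCAC in the 3' UTR searched. It was at 7.12 and 5.91 RPKM in knockdown, against 6.62, 6.22 and 7.24 RPKM in control. The knockdown libraries bracketed control replicates 1 and 2. The log2 difference was -0.04 (SE 0.17, 95% interval -0.46 to 0.38; limma adjusted p = 0.96), and the sign changed without control replicate 3 (0.01) and without knockdown replicate 3 (0.09). A share of 2.33% of HIF1AN exon bases overlaps NDUFB8 on the other strand, which was at 1.56 and 2.96 RPKM in knockdown and 1.36, 1.54 and 2.32 RPKM in control.

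VHL (ENSG00000134086, chromosome 3 from 10141008 to 10152220, plus strand) encodes the subunit that recognises hydroxylated HIF-alpha. It was at 23.3 and 24.5 RPKM in knockdown, against 19.6, 16.8 and 27.4 RPKM in control. Control replicate 3 was the highest of the 5 libraries and control replicate 2 the lowest. The log2 difference was 0.19 (SE 0.23, 95% interval -0.39 to 0.78; limma adjusted p = 0.83), and 0.39 without control replicate 3 and 0.04 without control replicate 2.

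**Figure D1:**
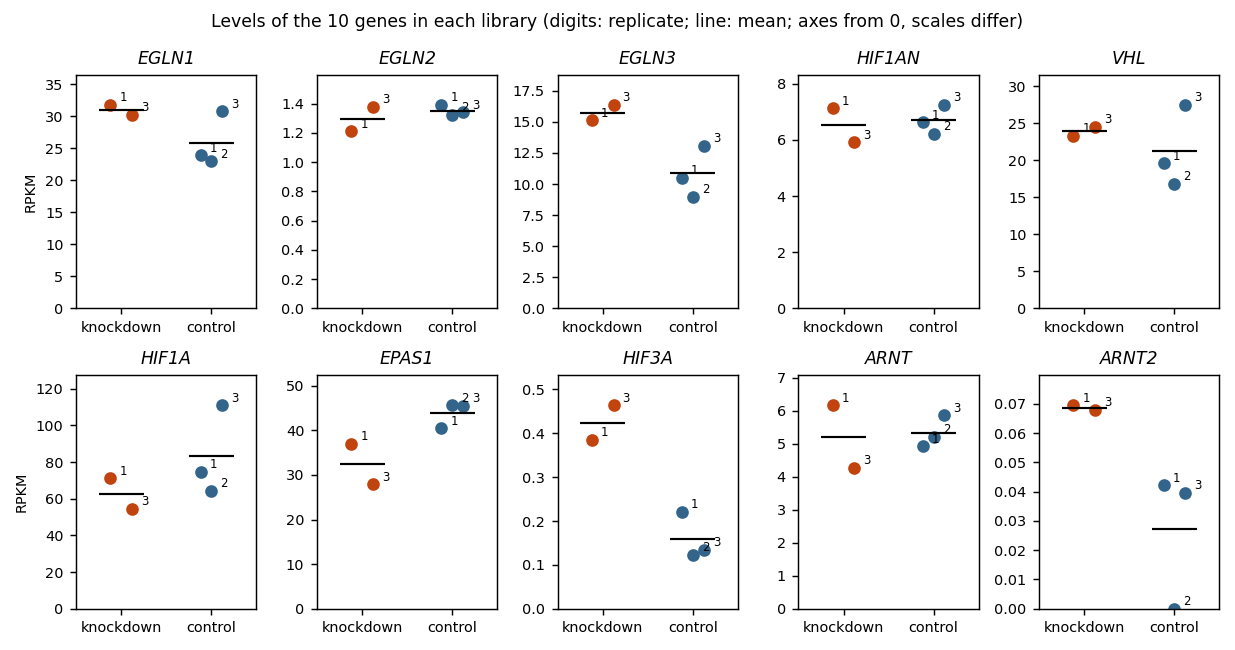
RPKM (y axes, from 0, a separate scale for each gene) of the 10 genes in knockdown (red, left) and control (blue, right) libraries, with the replicate number beside each point and the group mean as a line. EGLN3 lies at 15.1 to 16.4 RPKM in knockdown, above its 3 controls, EPAS1 lies at 27.9 to 36.9 RPKM in knockdown, below its 3 controls, and the groups overlap for EGLN1, EGLN2, HIF1AN, VHL, HIF1A and ARNT.

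Of the alpha subunits, EPAS1 was lower in both knockdown libraries than in any control, HIF1A was variable among the controls, and HIF3A was scarce. HIF1A was the most abundant of the 10 genes in all 5 libraries. EPAS1 came next except in knockdown replicate 3, where EGLN1 lay above it.

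EPAS1 (ENSG00000116016, chromosome 2 from 46293667 to 46386703, plus strand) encodes HIF-2 alpha, a subunit first described in endothelial cells and also found in hepatocytes. It was at 36.9 and 27.9 RPKM in knockdown, against 40.5, 45.6 and 45.5 RPKM in control, on 2506 and 3094 reads in knockdown and 2712, 649 and 6508 reads in control. The groups did not overlap, and the controls were closer to each other than the knockdown libraries. EPAS1 averaged 32.4 ± 6.39 RPKM in knockdown (SD, n = 2) and 43.8 ± 2.93 RPKM in control (SD, n = 3). Its log2 difference of -0.44 (SE 0.18, 95% interval -0.89 to 0.00) did not pass (limma adjusted p = 0.71). It was lower in 2 of 2 knockdown libraries than in all 3 controls, as were 13.6% of all genes tested, and 10.5% of them had a more negative difference. Without knockdown replicate 3 the difference was -0.24.

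HIF1A (ENSG00000100644, chromosome 14 from 61695513 to 61748259, plus strand) encodes HIF-1 alpha, the subunit stabilised in most cells at low oxygen. It was at 71.2 and 54.5 RPKM in knockdown, against 74.8, 64.3 and 111 RPKM in control. Knockdown replicate 3 was the lowest of the 5 libraries and control replicate 3 the highest, and knockdown replicate 1 lay between control replicates 1 and 2. The means were 62.8 ± 11.8 RPKM in knockdown (SD, n = 2) and 83.4 ± 24.5 RPKM in control (SD, n = 3). HIF1A differed by -0.38 on the log2 scale (SE 0.28, 95% interval -1.08 to 0.32; limma adjusted p = 0.75), by -0.16 without control replicate 3 and by -0.19 without knockdown replicate 3. Control replicate 3 was the highest library for HIF1A, VHL and HIF1AN and the highest control for EGLN1, EGLN3 and ARNT. It also had the lowest share of mitochondrial reads, at 4.94%, against 7.40% and 10.4% in the other controls and 8.30% and 7.83% in knockdown. The part of that share in these levels was not tested. A share of 2.27% of HIF1A exon bases overlaps HIF1A-AS1 on the other strand, which was at 0.660 and 0.303 RPKM in knockdown and 0.501, 0 and 0.939 RPKM in control. The 3 genes closest to HIF1A in pattern, by Euclidean distance between centred log2 values over 5 libraries among 5623 genes at 5 RPKM or more in each library, were C5orf24 at a distance of 0.0719, CDC27 at 0.0788 and ARHGAP29 at 0.0964.

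HIF3A (ENSG00000124440, chromosome 19 from 46297046 to 46343433, plus strand) encodes another alpha subunit, some isoforms of which oppose the others. It was at 0.386 and 0.464 RPKM in knockdown, against 0.221, 0.123 and 0.134 RPKM in control. The counts behind them were 30 and 59 reads in knockdown and 17, 2 and 22 reads in control. Both knockdown libraries lay above all controls, and the gene was under the filter on low values, so no test was made.

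The ratio of HIF1A to EPAS1 was 1.93 and 1.95 in knockdown, inside the control range of 1.85, 1.41 and 2.44. The summed RPKM of the 3 alpha subunit genes was 108.5 and 82.8 in knockdown, against 115.5, 110.1 and 156.6 in control, so both knockdown libraries were lower than all controls. The EGLN sum divided by the alpha sum was 0.443 and 0.579 in knockdown, against 0.310, 0.302 and 0.289 in control. The controls differed from each other by less than any of them differed from the knockdown libraries, and the knockdown libraries differed from each other by more than the controls did. No test was made of these ratios, since the genes in them were chosen with earlier results known.

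**Figure D2:**
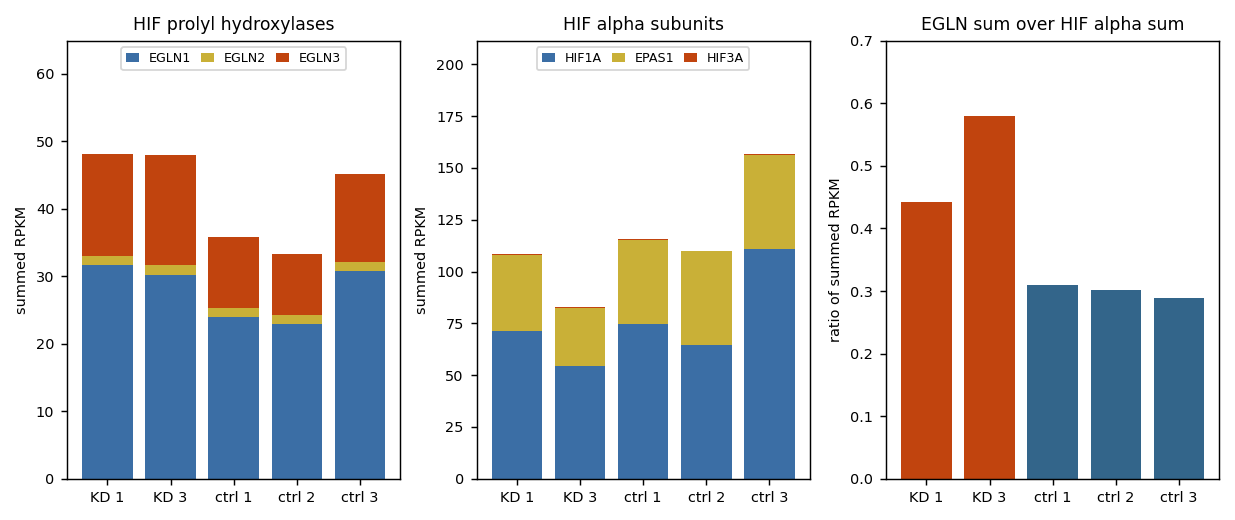
Summed RPKM of the prolyl hydroxylase genes (left) and of the HIF alpha genes (middle), stacked by gene, and the ratio of these sums (right, red for knockdown, blue for control), with knockdown (KD) replicates 1 and 3 left of control (ctrl) replicates 1 to 3 and all axes from 0. The ratio is 0.443 and 0.579 in knockdown and 0.289 to 0.310 in control, and HIF3A is at most a thin line.

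The ARNT genes showed no separation where they could be tested. ARNT (ENSG00000143437, chromosome 1 from 150809705 to 150876768, minus strand) encodes the common partner of the alpha subunits. It was at 6.16 and 4.27 RPKM in knockdown, against 4.91, 5.20 and 5.86 RPKM in control. The knockdown libraries were the highest and the lowest of the 5. ARNT differed by -0.04 on the log2 scale (SE 0.21, 95% interval -0.57 to 0.48; limma adjusted p = 0.96). The sign changed without control replicate 3 (0.02) and without knockdown replicate 3 (0.20).

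ARNT2 (ENSG00000172379, chromosome 15 from 80404350 to 80597937, plus strand), a related partner best known from neurons, was at 0.0695 and 0.0680 RPKM in knockdown, against 0.0422, 0 and 0.0395 RPKM in control. These are 5 and 8 reads in knockdown and 3, 0 and 6 reads in control, too few to read a direction from. ARNT2 was under the filter on low values and was not tested.

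Across the 10 genes the order of levels held in 4 of the 5 libraries, from HIF1A through EPAS1, EGLN1, VHL, EGLN3, HIF1AN, ARNT, EGLN2 and HIF3A to ARNT2. EPAS1 and EGLN1 exchanged places in knockdown replicate 3. The ranges over all 5 libraries overlapped for 3 pairs of neighbours, EPAS1 (27.9 to 45.6 RPKM) and EGLN1 (23.0 to 31.7 RPKM), EGLN1 and VHL (16.8 to 27.4 RPKM), and HIF1AN (5.91 to 7.24 RPKM) and ARNT (4.27 to 6.16 RPKM). The other neighbours were apart in all 5 libraries. Of the 8 genes tested, 1 was higher and 1 lower in both knockdown libraries than in all controls, shares close to the 14.3% and 13.6% of all genes. Fold changes on the log2(RPKM + 0.5) scale understate those of low genes.

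**Figure D3:**
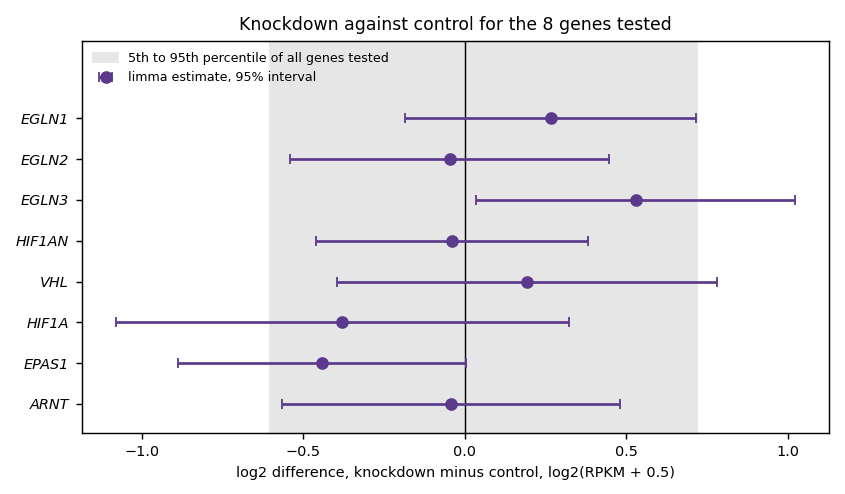
Log2 difference of knockdown minus control on the log2(RPKM + 0.5) scale (x axis) for the 8 genes tested, as points with 95% intervals from limma, over a grey band from the 5th to the 95th percentile of all genes (-0.60 to 0.72). All 8 points lie inside the band, EGLN3 at 0.53 is the highest and EPAS1 at -0.44 the lowest.

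The differences were recomputed under other settings on the libraries that follow the gene IDs. EGLN3 ranged from 0.41 to 0.67, EGLN1 from 0.19 to 0.44 and VHL from 0.04 to 0.39, all above 0. HIF1A ranged from -0.57 to -0.16 and EPAS1 from -0.64 to -0.24, all below 0. None of the 8 genes was called under any of the 17 alternatives, and the lowest adjusted p was 0.22, for EGLN3 with limma voom and sample weights.

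**Figure D4:**
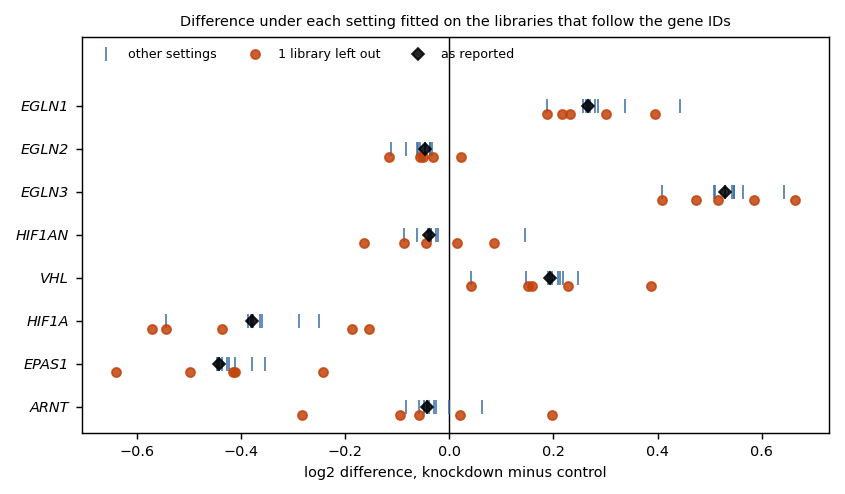
Log2 difference of knockdown minus control (x axis) for each tested gene as reported (black diamonds), with 1 library left out (red circles) and under other settings (blue ticks), leaving out the fit with knockdown replicate 2. EGLN3, EGLN1 and VHL stay right of 0, HIF1A and EPAS1 stay left of it, and EGLN2, HIF1AN and ARNT lie on both sides.

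The other genes of the pathway were described by lists, with 0 members past the adjusted threshold in any list in either direction (limma; 0 also with voom over all genes). Over all 15408 genes, 50% had a log2 difference above 0 and the median was 0.00. Among partners of VHL in its ubiquitin ligase, 4 of 6 tested members were above 0, with a median of 0.34, and 0 had an unadjusted p under 0.05. ELOB, a member of this list, was at 117.8 and 159.2 RPKM in knockdown, against 121.6, 160.6 and 55.8 RPKM in control. The groups overlapped, and the list median was 0.09 without control replicate 3, the library in which ELOB was lowest, and 0.14 without knockdown replicate 3.

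Among coactivators and their CITED competitors, 2 of 6 tested members were above 0, with a median of -0.32, and 0 had an unadjusted p under 0.05. That median was -0.16 without control replicate 2, -0.19 without knockdown replicate 3 and -0.15 with length and GC trends removed. EP300, the acetyltransferase bound by HIF-alpha, was at 7.50 and 4.08 RPKM in knockdown, against 7.60, 11.9 and 7.95 RPKM in control. CITED2, which competes with HIF-alpha for EP300 and is a HIF target itself, was at 58.5 and 54.9 RPKM in knockdown, against 51.3, 40.3 and 45.7 RPKM in control. Neither pair of groups overlapped, and the log2 differences were -0.64 (SE 0.32) and 0.31 (SE 0.16), with limma adjusted p = 0.71 for both. Of the 6 tested, 2 were lower and 1 higher in both knockdown libraries than in all controls, against 13.6% and 14.3% of all genes. The other lower member was the coactivator NCOA2, at -0.76 (SE 0.32; limma adjusted p = 0.71). EP300, CITED2, NCOA2 and ELOB are named here after their values were seen.

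Proteins that act on HIF-alpha or EGLN proteins without oxygen had 5 of 10 members above 0 and a median of 0.02, which ran from -0.02 without knockdown replicate 3 to 0.17 without knockdown replicate 1 or control replicate 2, and was -0.06 with length and GC trends removed. FKBP8, a chaperone reported to bind PHD2, was the 1 member with a limma unadjusted p under 0.05. Over all genes 3.8% were higher and 2.54% lower at that level. FKBP8 was at 96.9 and 115.5 RPKM in knockdown and 84.8, 73.7 and 72.9 RPKM in control. Among other oxygenases that use 2-oxoglutarate, 11 of 22 tested members were above 0, with a median of 0.00, and -0.08 without knockdown replicate 1 to 0.04 without control replicate 3. P4HA2, a collagen prolyl hydroxylase subunit, differed by 0.43 (SE 0.14) and KDM6A, a histone demethylase, by -0.56 (SE 0.22). They were the 2 members with a limma unadjusted p under 0.05, and limma adjusted p = 0.71 for both. Of the 22, 4 were higher and 6 lower in both knockdown libraries than in all controls, against 14.3% and 13.6% of all genes. P4HTM, a membrane prolyl hydroxylase also reported to act on HIF-alpha, was at 0.352 and 0.379 RPKM in knockdown and at 0.399, 0.201 and 0.154 RPKM in control, under the filter, and is named after its values were seen.

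Enzymes that make or remove the hydroxylases' cosubstrate and inhibitors had 4 of 10 members above 0 and a median of -0.13, which was -0.23 without control replicate 2, -0.08 without control replicate 1 and -0.01 with length and GC trends removed. IDH2, a mitochondrial enzyme that makes 2-oxoglutarate, was at 138.2 and 154.3 RPKM in knockdown, against 112.6, 101.9 and 97.4 RPKM in control. The groups did not overlap, and IDH2 differed by 0.49 on the log2 scale (SE 0.16; limma adjusted p = 0.71). Of the 10 members, 1 was higher and 4 were lower in both knockdown libraries than in all controls, against 14.3% and 13.6% of all genes. IDH1, among the lower ones, differed by -0.40 (SE 0.19; limma adjusted p = 0.71) and is named after its values were seen. Other bHLH-PAS factors, the protein family of HIF-alpha and ARNT, had 2 of 7 tested members above 0 and a median of -0.13, with NPAS1 at 1.07 (SE 0.39; limma adjusted p = 0.71). The bHLH-PAS median was -0.01 without control replicate 3, -0.02 without knockdown replicate 3 and -0.20 without control replicate 2, and its sign turned with length and GC trends removed (0.07). Of the transcripts antisense to HIF1A, HIF1A-AS1 and HIF1A-AS2 were tested and differed by 0.11 (SE 0.51) and -0.37 (SE 0.55).

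HIF target genes lay mostly above 0 in lists that earlier results on these libraries had already pointed to, so their direction is no independent support. Of the list read here as targets of HIF-1, 10 of 11 tested members were above 0, with a median of 0.63, and 9 of 11 were higher in both knockdown libraries than in all controls (14.3% over all genes). CA9, a carbonic anhydrase, was at 15.3 and 18.0 RPKM in knockdown, against 6.26, 7.68 and 7.67 RPKM in control, and the glycolytic enzyme ALDOC was at 78.2 and 83.1 RPKM in knockdown, against 49.2, 48.5 and 46.1 RPKM in control. Of the list read as targets of HIF-2, 5 of 6 tested members were above 0, with a median of 0.40. Of these 6, 4 were higher and 1 lower in both knockdown libraries than in all controls, against 14.3% and 13.6% of all genes. LOXL2, a lysyl oxidase, was at 9.73 and 7.91 RPKM in knockdown, against 3.30, 3.60 and 4.52 RPKM in control, and PLIN2, a lipid droplet coat protein, differed by 0.64 on the log2 scale (SE 0.15; limma adjusted p = 0.71). The cyclin CCND1 was at 41.9 and 40.3 RPKM in knockdown, against 55.6, 53.6 and 72.0 RPKM in control. EPO, the classical HIF-2 target, was under the filter at 0.890 and 0.890 RPKM in knockdown and 0.491, 0 and 0.384 RPKM in control, and is named after its values were seen. Of targets read as shared, 11 of 12 were above 0, with a median of 0.38. Of these 12, 8 were higher in both knockdown libraries than in all controls, against 14.3% of all genes. DDIT4, an inhibitor of mTOR signalling, differed by 0.86 (SE 0.14) and NDRG1, a stress-induced growth regulator, by 0.92 (SE 0.17), with limma adjusted p = 0.71 for both. EGLN3 and EGLN1, themselves known HIF targets, were at 0.53 and 0.27. The genes of the factors, HIF1A, EPAS1 and ARNT, were at -0.38, -0.44 and -0.04. None of these genes passed the adjusted threshold, and the part of HIF activity in these differences was not tested.

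**Figure D5:**
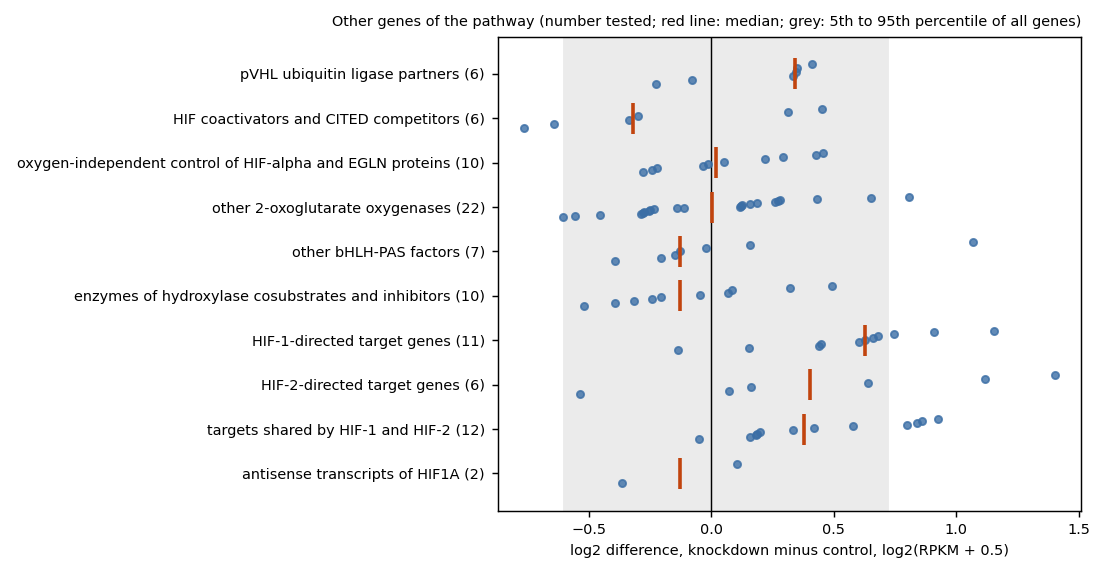
Log2 difference of knockdown minus control (x axis) for each tested gene of the pathway lists (points, number tested in brackets), with the list median as a red line and the 5th to 95th percentile of all genes in grey. Medians run from -0.32 for coactivators to 0.63 for targets of HIF-1, and most lists of regulators spread on both sides of 0.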

How the data were processed

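RNA of 6 libraries was sequenced, and 1 table of RPKM values per gene and library was deposited by the authors. HISAT2 and GRCh38 are named per the submitters' processing notes, and the counter, annotation, filters and strand setting were not given in the sources used here. Symbols, coordinates, exon lengths and 3' UTRs came from GENCODE release 29, which held all 58676 gene IDs, and miRNA and promoter sequences from RefSeq (GRCh38.p14). In 5 libraries 100% of values came out as whole reads from RPKM and exon length (tolerance 0.002 of a read), and 0.420% in knockdown replicate 2. Counting error limits low genes, and control replicate 2 is the shallowest. The test was limma 3.58.1 in R 4.3.3 (linear fits moderated by eBayes with a mean-variance trend, no covariates), with a pseudocount of 0.5, and its code was tested on simulated data. All 10 genes are named, and from each list up to 2 genes in each direction by unadjusted p under 0.05. A gene that this rule would name is not reported here. The members and lists were chosen with earlier results of these data known. Alternatives were other pseudocounts (0.1 and 1), filters, scalings, no trend, voom on recovered reads, the replicate number as a block, all 6 columns and leaving out each library. Sample weights, and a correction of every library for exon length and GC content, were added after the data were seen.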

Additional observations from a re-analysis of the deposited data

How the results depend on the processing

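The count of 0 genes called in either direction held in limma and voom under every alternative except 2. With the replicate block, 33 genes were called higher and 7 lower at 1 residual degree of freedom. Sample weights in voom gave calls of 3 higher and 1 lower. None of the 8 HIF and hydroxylase genes tested was among either set. Deviations from the group means correlated at -0.168 for replicate number 1 and 0.0179 for number 3. With 2 knockdown libraries, their deviations mirror each other, so these values cannot decide whether replicate numbers pair the libraries. With the block, where control replicate 2 has no partner, EGLN3 was at 0.41 and EPAS1 at -0.41. At an unadjusted p under 0.05, against 585 higher and 392 lower, the counts moved over 1.5 times to 1306 higher without the filter, 880 lower with voom, 1079 and 922 with sample weights, 53 and 31 with all 6 columns, and 615 lower with length and GC trends removed. They were 122 to 698 higher and 64 to 601 lower with 1 library left out, lowest without knockdown replicate 3, with 268 higher without knockdown replicate 1 and 601 lower without control replicate 2. With all 6 columns as deposited the median of all genes was -0.91, and EGLN1, EGLN3 and VHL were at -1.73, -1.14 and -1.68, where knockdown replicate 2 lists them at 0. The list medians, targets included, then lay between -1.87 and -0.63. Leaving out 1 library gave -0.28 to 0.20 for ARNT, -0.16 to 0.0856 for HIF1AN and -0.12 to 0.0215 for EGLN2. ARNT was at 1.18e-05 with sample weights, and with length and GC trends removed ARNT was at 0.0631 and HIF1AN at 0.146. The causes of these moves were not tested. A fit without 1 knockdown library rests on the other alone, which is assumed to vary like the controls.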
